A study of Drosophila melanogaster with 4 samples.

Results

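The JAK-STAT pathway genes described here are *upd1*, *upd2*, *upd3*, *dome*, *hop*, *Stat92E*, *Socs36E* and *chinmo*, 8 genes found by symbol among the 17023 genes counted in ovaries of *Drosophila melanogaster*. Poly(A)-selected mRNA was sequenced from 2 libraries of *aramis* RNAi ovaries and 2 libraries of *bam* RNAi ovaries, which served as the control (n = 2 per group throughout). Every fly carried UAS-Dicer2, which strengthens RNAi, and NosGAL4, a driver active in germ cells, so the somatic cells of the ovary were not the intended target. The females were fattened on yeast and their whole ovaries taken 1 to 3 days after eclosion. The number of females in a library, and whether replicates were separate crosses, is not given in the sources used here, so p-values measure only the spread between these libraries.

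In flies, secreted Unpaired ligands bind the receptor Domeless, which activates the Janus kinase Hopscotch. The kinase phosphorylates the transcription factor Stat92E, which then enters the nucleus. In the ovary the pathway is known mainly from somatic cells, acting in escort and cap cells beside the germline stem cells and later, through Unpaired from the polar cells, in stalk, follicle and border cells.

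Total counts ranged over the libraries between 12977013 and 16754980. DESeq2 gave an adjusted p to 10049 genes, of which 17.6% were under 0.05, 9.85% as higher and 7.79% as lower in *aramis* RNAi. The targeted gene *ais*, as the annotation names *aramis*, was at 117 and 153 normalised counts (counts over the DESeq2 size factors) in the *aramis* RNAi libraries, against 910 and 323 in the *bam* RNAi libraries. *bam* did not separate the groups, and driver-only ovaries, which would show its depletion, were not analysed here. Cell type markers did differ. Of 10 germline markers, 6 were called lower, and the list summed to 1418 and 1568 CPM (counts scaled to the library total) in the *aramis* RNAi libraries, against 3250 and 4692 CPM in the *bam* RNAi libraries. Of 9 hemocyte markers, 7 were called higher, with sums of 5768 and 6856 CPM for *aramis* RNAi against 3815 and 1821 CPM for *bam* RNAi. Muscle markers (4 of 7 called higher) summed to 41678 and 40600 CPM for *aramis* RNAi against 19300 and 15874 CPM for *bam* RNAi, and fat body markers (2 of 4 called higher) to 931 and 382 CPM for *aramis* RNAi against 132 and 207 CPM for *bam* RNAi. No marker in these 4 lists was at 0 in every library. Among 19 markers of terminal filament, cap, escort, follicle, polar and stalk cells, only *tj* was called, as lower. Eggshell and yolk genes, products of older follicle cells and fat body, were lower in part. Of 11, 6 were called lower, all 6 of them vitelline membrane and related eggshell genes, and the list had a median log2 fold change of -3.61, with sums of 441 and 378 CPM for *aramis* RNAi against 1274 and 1077 CPM for *bam* RNAi. In whole ovaries, fewer cells of a type and less RNA per cell cannot be told apart.

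Of the 7 JAK-STAT genes with an adjusted p, 2 passed the threshold, in opposite directions. Among all genes with an adjusted p, 17.6% passed it. The kinase gene *hop* was 2.46-fold higher in *aramis* RNAi and *chinmo* was 4.28-fold lower. The receptor gene *dome*, the transcription factor gene *Stat92E*, the feedback gene *Socs36E* and the ligand genes *upd1* and *upd3* were not called. Only *chinmo* was also past a 4-fold change, which 6.92% of genes with an adjusted p were. The 8 genes had a median log2 fold change of -0.44, beside -0.09 over all 11128 tested genes. Normalised counts of the groups did not overlap for *upd1*, *upd2*, *hop* and *chinmo*, 4 of the 8, while 57.7% of all tested genes had this pattern. *upd2* had 5 counts in each *aramis* RNAi library, against 1 and 0 in the *bam* RNAi libraries. It reached the minimum summed count for testing almost only through *aramis* RNAi. The lack of overlap of *upd2*, and its place in the median, therefore decide nothing about a difference between the groups.

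**Figure D1:**
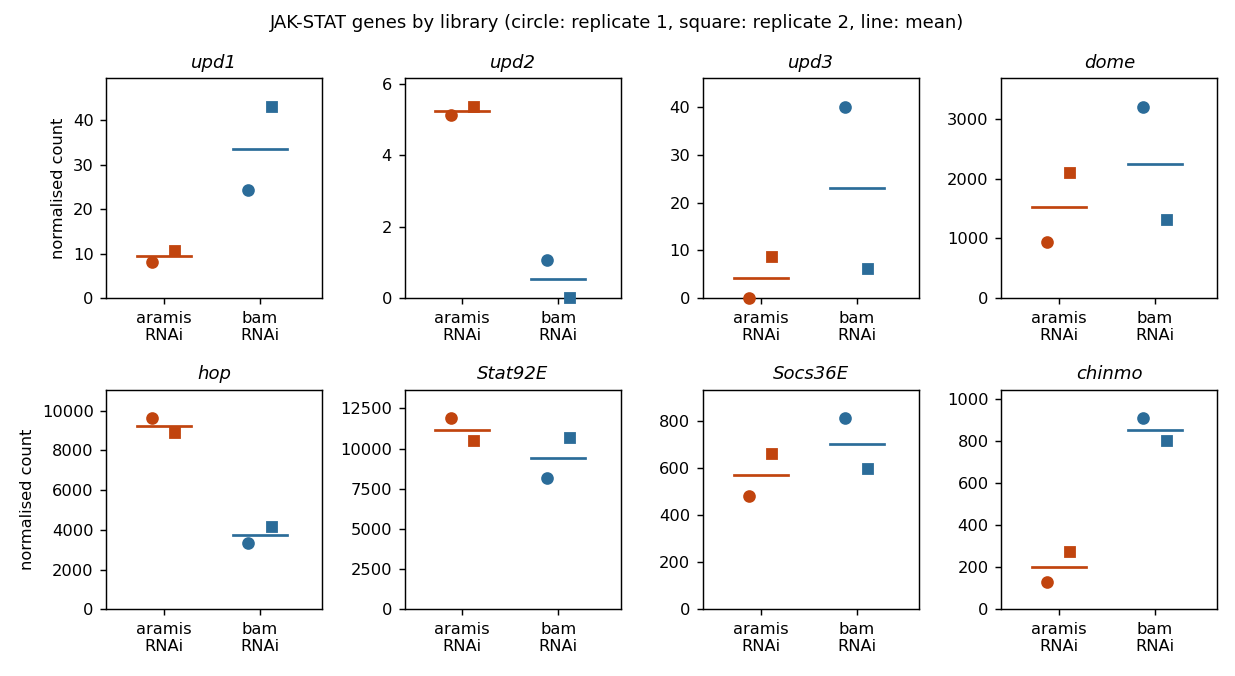
Normalised counts of the 8 JAK-STAT genes, 1 panel per gene with its own linear axis from 0. Orange marks *aramis* RNAi and blue *bam* RNAi, circles are replicate 1, squares are replicate 2, and lines are group means. Both *hop* values of *aramis* RNAi lie above both of *bam* RNAi, both *chinmo* values lie below, and *dome* overlaps.

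None of the 8 genes shares exon bases with another annotated gene. On the X chromosome of dm6 lie 5 of the 8, where 17.3% of the tested genes lie. The ligand genes form a cluster of 68638 bases, made of *upd2* (FBgn0030904; X, 18240654 to 18243284, minus strand), *upd3* (FBgn0053542; X, 18277233 to 18284596, plus strand) and *upd1* (FBgn0004956; X, 18305354 to 18309291, minus strand). Within that span are 4 other annotated genes, of which 1 is protein-coding. *dome* (FBgn0043903; X, 19676061 to 19683518, minus strand) lies 169 bases from *et*, which encodes a related short receptor that dampens the pathway.

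To compare levels between genes, counts were divided by the length of the longest annotated transcript and scaled to a common library total (TPM). *Stat92E* was the most abundant of the 8 genes, at 302 ± 12.1 TPM (SD, n = 2) in *aramis* RNAi ovaries and 362 ± 54.3 TPM in *bam* RNAi ovaries, above at least 97.2% of genes in either group. *hop* came next, with 207 ± 14.4 TPM in *aramis* RNAi ovaries and 120 ± 13.2 TPM in *bam* RNAi ovaries. The receptor gene *dome* had 36.8 ± 23.7 TPM in *aramis* RNAi ovaries and 75.5 ± 47.3 TPM in *bam* RNAi ovaries.

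*Socs36E* followed, with 18.9 ± 6.48 TPM in *aramis* RNAi ovaries and 32.7 ± 8.16 TPM in *bam* RNAi ovaries. The ranges of *dome* and *Socs36E* overlapped in *aramis* RNAi but not in *bam* RNAi, and none of the higher neighbours overlapped. *chinmo* was the least abundant apart from the ligand genes, with 1.89 ± 1.16 TPM in *aramis* RNAi ovaries and 11.1 ± 1.40 TPM in *bam* RNAi ovaries. In *bam* RNAi its place below *Socs36E* rests on the transcript lengths used, 12385 bases for *chinmo* and 3503 for *Socs36E*. Normalised counts there averaged 853 for *chinmo* and 705 for *Socs36E*. The ligand genes lay below *chinmo* in both groups. *upd1* had 0.413 ± 0.127 TPM in *aramis* RNAi ovaries, where all 3 ligand genes overlapped, and 2.04 ± 0.735 TPM in *bam* RNAi ovaries, where it overlapped with *upd3* and not with *upd2*.

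*hop* (FBgn0004864; X, 11360930 to 11368098, minus strand, 10 exons) encodes the only Janus kinase of the fly. It stood at 9602 and 8846 normalised counts in the *aramis* RNAi libraries, against 3363 and 4140 in the *bam* RNAi libraries. Both *aramis* RNAi libraries were above both *bam* RNAi libraries, and the replicates lay close together. Their log2 difference was larger than that of only 14.1% of genes in *aramis* RNAi and 24.3% in *bam* RNAi, among genes with a mean of 50 or more. DESeq2 put the log2 fold change at 1.30 (SE 0.40) with an adjusted p of 0.0116. *hop* was above 0 under each alternative, but the call was not stable. It was lost in the edgeR quasi-likelihood test (1.27, adjusted p = 0.0614), with total-count scaling (0.93, adjusted p = 0.0811) and relative to the ovarian somatic markers (1.18, adjusted p = 0.187). Without *aramis* RNAi replicate 1 it was 1.26 (adjusted p = 0.368) and without replicate 2 it was 1.37 (adjusted p = 0.218), fits in which the lone library is assumed to vary like the other group. The hemocyte, muscle and fat body markers were higher in the same group, and their part in this difference was not tested.

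*chinmo* (FBgn0086758; 2L, 1651258 to 1704682, plus strand, 7 exons) encodes a BTB zinc-finger protein that acts downstream of Stat92E in stem cells of the fly testis. It stood at 128 and 270 normalised counts in the *aramis* RNAi libraries, against 907 and 799 in the *bam* RNAi libraries. The groups were far apart, although the *aramis* RNAi replicates differed more than those of 95.2% of genes. The log2 fold change from DESeq2 was -2.10 with an SE of 0.50 and an adjusted p of 0.000669. *chinmo* was also called by edgeR (-2.12, adjusted p = 0.0173), relative to the ovarian somatic markers (-2.20, adjusted p = 0.00731) and with offsets for transcript length (-2.33, adjusted p = 8.96e-06). Without *aramis* RNAi replicate 1 it was -1.63 (adjusted p = 0.237). Relative to the germline markers, which were themselves lower in *aramis* RNAi, it was -0.33 (adjusted p = 0.590). The eggshell genes were lower in the same group. The part of the lower germline and eggshell signals in the *chinmo* difference was not tested.

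Scaling between libraries does not enter the ratio of 2 genes within a library, so ratios among the 5 members with a mean of at least 100 normalised counts were compared next. *hop* over *Stat92E*, the kinase over its substrate, was 0.672 and 0.700 as a ratio of TPM in the *aramis* RNAi libraries, against 0.341 and 0.322 in the *bam* RNAi libraries. On the log2 scale the difference was 1.05, beside SDs of 0.0425 within *aramis* RNAi and 0.0584 within *bam* RNAi. It was the most even of the 10 ratios in both groups. *hop* was also higher relative to *dome*, *Socs36E* and *chinmo* in each *aramis* RNAi library than in each *bam* RNAi library.

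*chinmo* was lower relative to each of the other 4 genes. It differed most from *hop*, whose TPM was 183 and 80.2 times that of *chinmo* in the *aramis* RNAi libraries, against 9.08 and 12.7 times in the *bam* RNAi libraries. The ratios among *Stat92E*, *dome* and *Socs36E* overlapped between the groups. In all, 7 of the 10 ratios did not overlap, and each of those 7 involved *hop* or *chinmo*. The 10 ratios share genes and are not independent of each other, and *hop* and *chinmo* had already been called in opposite directions. The ratios were chosen after the data were seen, and the share without overlap among other gene pairs was not computed. Among all tested genes, the normalised counts of 57.7% did not overlap between the groups. With 2 libraries per group an exact permutation test (two-sided) reaches no p below 0.333, so no p is given for a ratio.

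**Figure D2:**
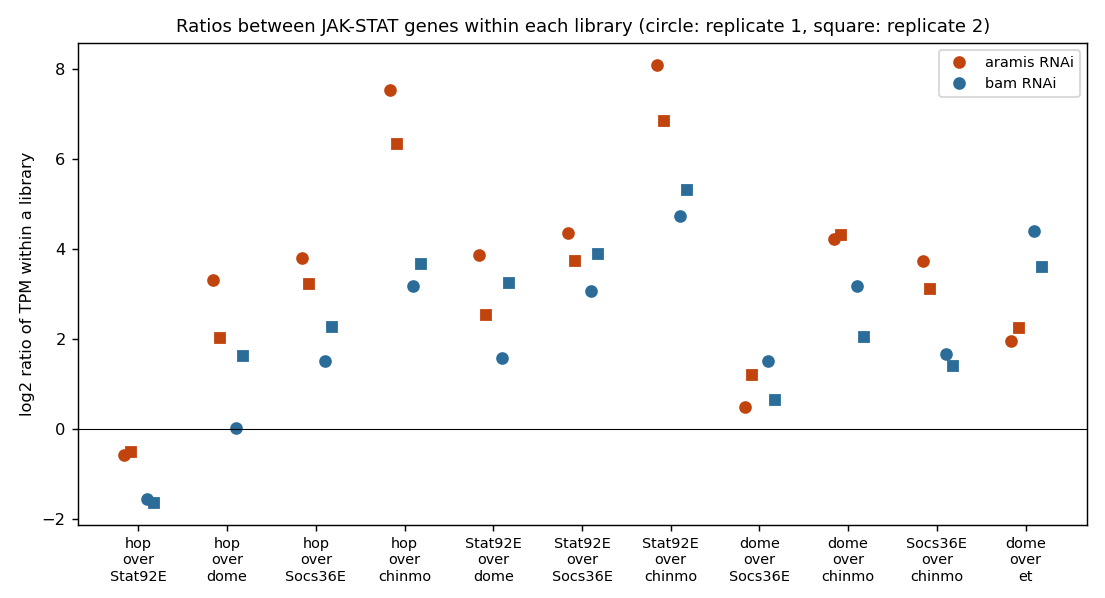
Log2 ratio of TPM between pairs of JAK-STAT genes within each library, with orange for *aramis* RNAi and blue for *bam* RNAi, circles for replicate 1 and squares for replicate 2. The 10 pairs of the 5 abundant members are followed by *dome* over its neighbour *et*. The *hop* over *Stat92E* points of a group nearly coincide, and the groups differ by 1.05.

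*Stat92E* (FBgn0016917; 3R, 20535323 to 20552311, minus strand, 11 annotated transcripts) stood at 11877 and 10496 normalised counts in the *aramis* RNAi libraries, against 8195 and 10682 in the *bam* RNAi libraries. The groups overlapped, and DESeq2 put the log2 fold change at 0.25 (SE 0.40, 95% interval -0.54 to 1.03) with an adjusted p of 0.724. With total-count scaling it was -0.13 (adjusted p = 0.865), and its mean TPM was likewise lower in *aramis* RNAi, so its direction depended on the scaling. *Socs36E* (FBgn0041184; 2L, 18138675 to 18152417, minus strand) is a direct Stat92E target whose product restrains the pathway. It stood at 482 and 660 normalised counts in the *aramis* RNAi libraries, against 812 and 598 in the *bam* RNAi libraries, with overlap. Its log2 fold change was -0.30 (SE 0.45, 95% interval -1.19 to 0.58) at a DESeq2 adjusted p of 0.688. These intervals include a 2-fold increase of *Stat92E* and a 2-fold decrease of *Socs36E*.

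*dome* was the least even of the abundant members, at 940 and 2101 normalised counts in the *aramis* RNAi libraries, against 3205 and 1303 in the *bam* RNAi libraries. Replicates of each group differed more than 2-fold and the ranges crossed. The log2 fold change of -0.57 (SE 0.54, 95% interval -1.63 to 0.50, DESeq2 adjusted p = 0.516) became 0.22 without *bam* RNAi replicate 1 (adjusted p = 0.819), -1.25 without *aramis* RNAi replicate 2 (adjusted p = 0.359), -0.08 without *aramis* RNAi replicate 1 and -1.09 without *bam* RNAi replicate 2. Across 7698 genes, which are not independent of each other, the ratio of replicate 1 to replicate 2 went with transcript length, with a Spearman's rho of -0.467 in *aramis* RNAi and 0.313 in *bam* RNAi. *dome*, with 4875 bases, went the same way as long transcripts in both groups. With offsets for length it stood at 1073 and 1904 in the *aramis* RNAi libraries, against 2749 and 1482 in the *bam* RNAi libraries, closer together but still crossed. *hop*, with 5055 bases, was nearly even between replicates before these offsets and less even with them. It then stood at 10980 and 7974 in the *aramis* RNAi libraries, against 2872 and 4744 in the *bam* RNAi libraries, still without overlap.

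The ligand genes rested on few reads. *upd1*, expressed in the polar cells, had 8 and 10 counts in the *aramis* RNAi libraries, against 23 and 50 counts in the *bam* RNAi libraries. Its normalised counts did not overlap, yet the log2 fold change of -1.83 (SE 1.06) did not pass the threshold (DESeq2 adjusted p = 0.232). Summed over each group, normalised *upd1* had a ratio of 0.273 (95% exact binomial interval 0.153 to 0.462), an interval for counting error that leaves out the spread between libraries.

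*upd3*, a ligand gene induced by stress in gut and hemocytes, had 0 and 8 counts in the *aramis* RNAi libraries, against 38 and 7 in the *bam* RNAi libraries, of which replicate 1 alone stood apart. DESeq2 gave it -2.43 (SE 1.60, adjusted p = 0.307), and -0.50 without that library. *upd2* had 5 counts in each *aramis* RNAi library, against 1 and 0 counts in the *bam* RNAi libraries, which are under the floor of 3 counts. Its summed ratio was 11.1 (95% exact binomial interval 1.58 to 481), and DESeq2 gave no adjusted p to a gene this low (unadjusted p = 0.240).

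Other regulators of the pathway came from a list of 15, chosen with earlier results of these data known. Of these, 13 were matched by symbol and *Ptp61F* and *smt3* were not. Only *BRWD3* was called, as lower, 1 of 13 where 17.6% of all genes with an adjusted p were called and 7.79% were called lower. The log2 fold changes ran from -1.18 to 1.41 with a median of -0.41, and 11 of the 13 were below 0. The median over all tested genes was also below 0, at -0.09. Of those 11, *Stam*, *Socs44A*, *Cdk4* and *CycD* lay above that median, at -0.03 to -0.02. *BRWD3* encodes a bromodomain protein that promotes Stat92E signalling in fly cells. It stood at 793 and 1139 normalised counts in the *aramis* RNAi libraries, against 2665 and 1716 in the *bam* RNAi libraries, without overlap. Its log2 fold change was -1.18 (SE 0.45) at a DESeq2 adjusted p of 0.0475. It shares up to 247 exon bases with genes on the other strand, and whether the counting used strand is not given in the sources used here. The call was lost in the edgeR test (-1.20, adjusted p = 0.0930) and with no independent filtering (DESeq2 adjusted p = 0.0526). It was also lost without *aramis* RNAi replicate 1 (-0.92) or replicate 2 (-1.45), and without *bam* RNAi replicate 1 (-0.83).

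Of the 13 regulators 0 were called higher by DESeq2 or edgeR, and at an unadjusted DESeq2 p under 0.05 there was 1, *et*. It stood at 120 and 219 normalised counts in the *aramis* RNAi libraries, against 74.7 and 53.2 in the *bam* RNAi libraries, with a log2 fold change of 1.41 (SE 0.61, adjusted p = 0.0897). The TPM of its neighbour *dome* was 3.86 and 4.73 times that of *et* in the *aramis* RNAi libraries, against 21.2 and 12.1 times in the *bam* RNAi libraries, without overlap. *lwr*, which encodes the SUMO conjugating enzyme, was at -1.05 (SE 0.46, adjusted p = 0.0987). *Su(var)2-10*, the PIAS gene, was at -0.66 (adjusted p = 0.274). *Socs16D* and *Socs44A*, relatives of *Socs36E*, were at -0.62 and -0.02, and the glypican genes *dally* and *dlp*, which act in the spread of Unpaired, at 0.56 and -0.41, none of them past the threshold.

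**Figure D3:**
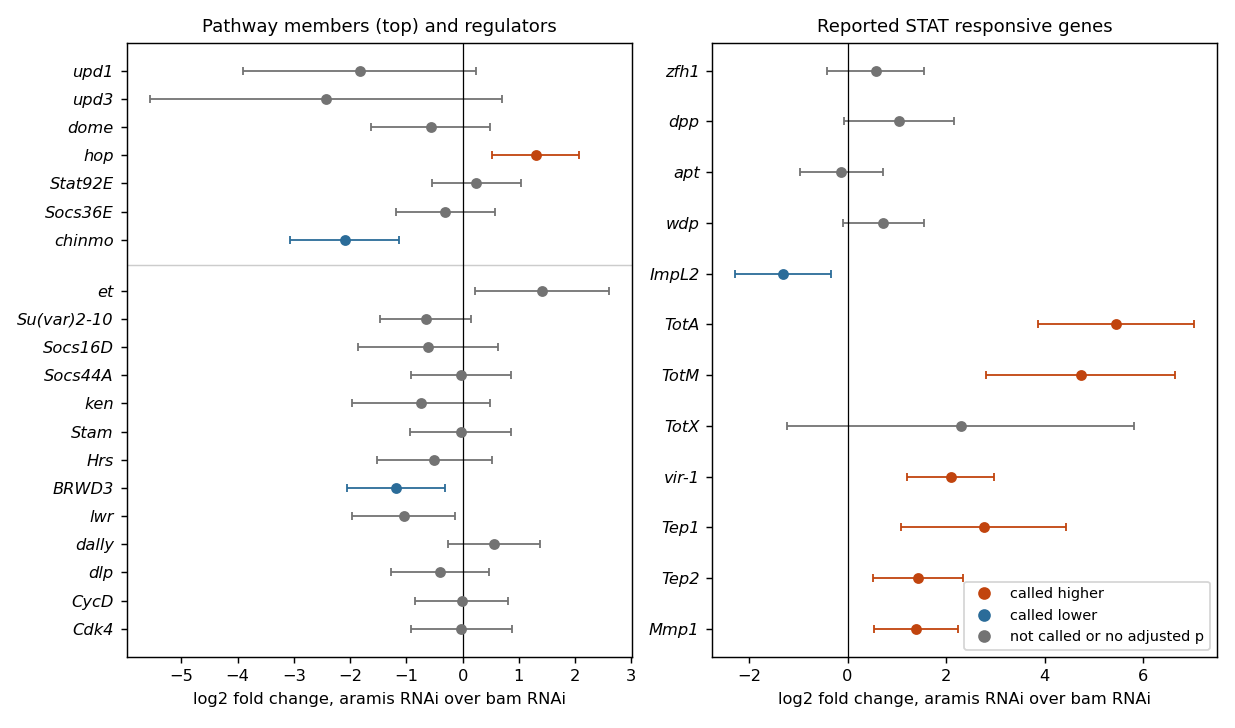
Log2 fold changes of *aramis* RNAi over *bam* RNAi with 95% intervals from the DESeq2 standard errors, for pathway genes (left, members above regulators) and for genes reported to respond to Stat92E (right). Orange is called higher, blue called lower and grey not called. *hop* stands at 1.30 and *chinmo* at -2.10. *upd2* and *TotC* are not drawn because both *bam* RNAi libraries had at most 1 count, and *slbo* because it was not tested.

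Genes reported to respond to Stat92E in some fly tissue were examined next. Of the 14 listed, 13 were tested. Among them 7 were called higher and *ImpL2* was called lower, where 9.85% of all genes with an adjusted p were called higher and 7.79% lower. With at least 10 counts required in every library, 4 were called higher and 1 lower. The list was chosen with earlier results of these data known, so its counts and median are a description only. The median log2 fold change was 1.43, beside -0.09 for all tested genes, and no call of the list stood without *aramis* RNAi replicate 1. *vir-1*, a gene induced by virus infection, stood at 8646 and 6442 normalised counts in the *aramis* RNAi libraries, against 1253 and 2269 in the *bam* RNAi libraries. The groups did not overlap, and DESeq2 gave 2.10 (SE 0.45, adjusted p = 0.000142). It was also called by edgeR (2.07, adjusted p = 0.0143) and relative to the ovarian somatic markers (1.93, adjusted p = 0.0398), and was at 1.90 without *aramis* RNAi replicate 1 (adjusted p = 0.155).

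*Tep1* and *Tep2*, thioester protein genes of immunity, had log2 fold changes of 2.76 (SE 0.85, adjusted p = 0.0120) and 1.43 (SE 0.47, adjusted p = 0.0191). *Mmp1*, a matrix metalloproteinase gene, stood at 788 and 904 normalised counts in the *aramis* RNAi libraries, against 339 and 306 in the *bam* RNAi libraries (1.39, SE 0.43, adjusted p = 0.0128). The edgeR adjusted p was 0.0277 for *Tep1*, 0.0598 for *Tep2* and 0.0605 for *Mmp1*. Without *aramis* RNAi replicate 1 they were at 2.47, 1.16 and 1.51, and without replicate 2 at 3.04, 1.69 and 1.31, none called. *Tep1* was also not called without *bam* RNAi replicate 1 (2.39).

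The Turandot genes encode secreted stress peptides of the fat body, and 3 of the 4 listed were called higher, with most reads in *aramis* RNAi replicate 1. *TotC*, at 0 in both *bam* RNAi libraries, reached the minimum summed count for testing through *aramis* RNAi alone. A call of *TotC* in the other direction was therefore not possible at these counts. With the minimum count required in every library, only *TotA* of the Turandot genes was tested, and it was called higher. *TotA* stood at 1030 and 99.4 normalised counts in the *aramis* RNAi libraries, against 14.7 and 11.2 in the *bam* RNAi libraries. *TotM* stood at 366 and 26.7 in the *aramis* RNAi libraries, against 11.6 and 3.43 in the *bam* RNAi libraries. *TotC* had 362 and 7 counts in the *aramis* RNAi libraries, against 0 in both *bam* RNAi libraries, so its mean was at least 66.1-fold higher, taking 3 counts per *bam* RNAi library as the floor. That bound rests on *aramis* RNAi replicate 1, and without it the bound is 2.61-fold. *TotC* was called at a DESeq2 adjusted p of 0.0496, and by edgeR at 0.00675. Its call was lost with total-count scaling (adjusted p = 0.0516) and relative to the ovarian somatic markers (adjusted p = 0.0889). It was also lost with the replicate number as a block (adjusted p = 0.273) and with no independent filtering (adjusted p = 0.0549). *TotX*, the fourth, was at 2.29 (adjusted p = 0.410). Log2 fold changes of 5.45 for *TotA* and 4.73 for *TotM* became 2.97 (adjusted p = 0.167) and 1.87 (adjusted p = 0.707) without *aramis* RNAi replicate 1. *TotM* was not called without *bam* RNAi replicate 1 (5.85), nor *TotC* without either *bam* RNAi library. Fat body markers summed highest in the same *aramis* RNAi library, at 931 CPM, and hemocyte markers were higher in both *aramis* RNAi libraries than in both *bam* RNAi libraries. The part of either cell type in the higher counts of the responsive genes was not tested.

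Of the listed responsive genes, *zfh1*, *dpp*, *apt* and *wdp* were not called. *zfh1*, a target in somatic stem cells of the testis, stood at 4342 and 6785 normalised counts in the *aramis* RNAi libraries, against 5292 and 2202 in the *bam* RNAi libraries, with overlap. *dpp*, which encodes the ligand that maintains germline stem cells, stood at 564 and 810 in the *aramis* RNAi libraries, against 509 and 157 in the *bam* RNAi libraries. These did not overlap, with a log2 fold change of 1.04 (SE 0.57, adjusted p = 0.200). *apt*, which limits the response in border cells, was at -0.13 (adjusted p = 0.870). *slbo*, a defining gene of border cells, had 3 and 0 counts in the *aramis* RNAi libraries, against 0 in both *bam* RNAi libraries, and was not tested. *wdp*, a feedback target that lowers the receptor in gut, was at 0.73 (SE 0.42, adjusted p = 0.227).

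*ImpL2*, which encodes a secreted binding protein of insulin-like peptides, stood at 118 and 122 normalised counts in the *aramis* RNAi libraries, against 307 and 286 in the *bam* RNAi libraries. Its log2 fold change was -1.31 (SE 0.50) at a DESeq2 adjusted p of 0.0488. The call was lost in the edgeR test (adjusted p = 0.0720) and with no independent filtering (DESeq2 adjusted p = 0.0540). It was also lost without any 1 of the 4 libraries, with values from -1.37 without *bam* RNAi replicate 2 to -1.25 without *bam* RNAi replicate 1. *ImpL2* shares 1651 exon bases with *CG46460* on the same strand, so its counts are uncertain.

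For each member with a mean of at least 100 normalised counts, the nearest of 7251 other genes were found by the Euclidean distance of centred log2 normalised counts over the 4 libraries. With so few libraries many genes lie close, and the distances are a description. *hop* lay nearest to *mrva* (distance 0.0606) and *FucTB* (0.0667), and *Stat92E* to *loj* (0.0244) and *fsd* (0.0414). *Socs36E* lay nearest to *Rab6* (0.0370) and *lncRNA:CR45409* (0.0486), and *dome* to *Son* (0.0752) and *Nf-YA* (0.0833). *chinmo* lay nearest to *unc79* (0.140) and to *c(3)G* (0.228), a gene of the synaptonemal complex. Among the members themselves, *dome* and *Socs36E* were the closest pair (0.819) and *hop* and *chinmo* the farthest apart (3.61).

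**Figure D4:**
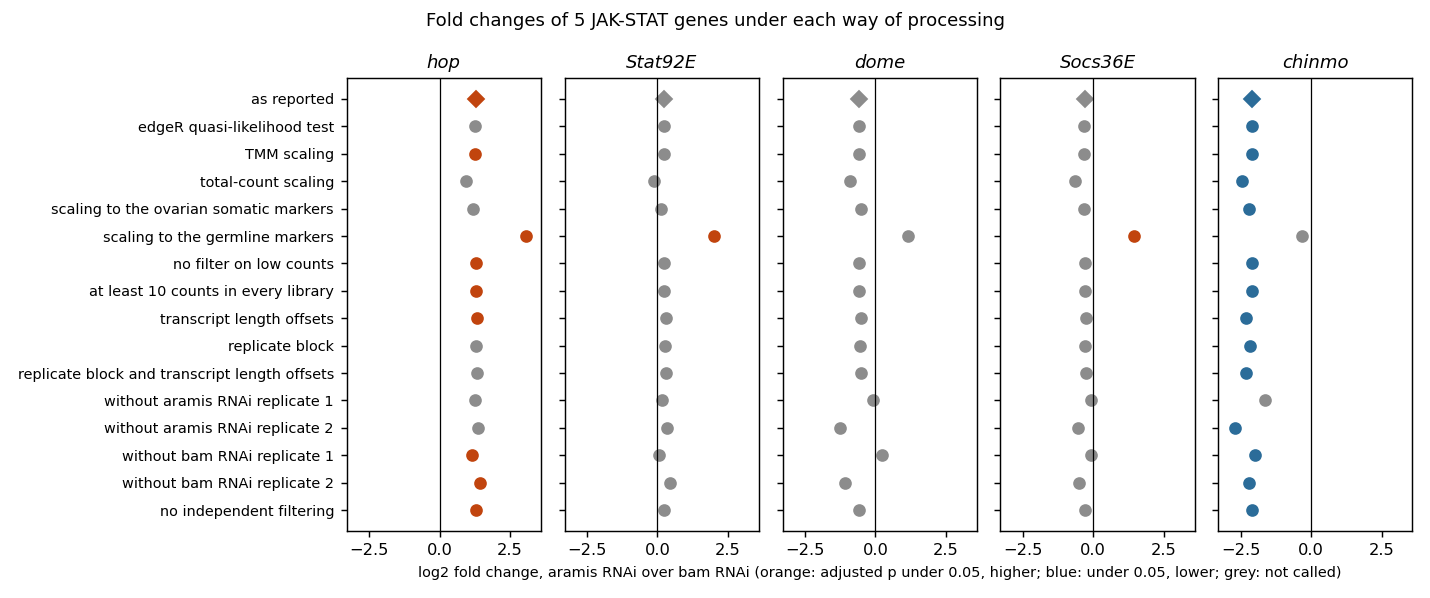
Log2 fold changes of *aramis* RNAi over *bam* RNAi for 5 JAK-STAT genes, 1 line per way of processing and 1 panel per gene, with the reported fit as a diamond. Orange is an adjusted p under 0.05 with a higher level, blue one with a lower level and grey not called. *hop* stays above 0 and *chinmo* below 0 in every line, and *dome* falls on both sides.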

How the data were processed

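The authors deposited raw counts per gene, 1 table a library, for ovaries with germline *aramis* RNAi or *bam* RNAi (2 libraries each, grouped by their labels) on dm6. The submitters' processing notes list HISAT2 2.1.0, featureCounts 1.4.6 and DESeq2 1.24.0 without roles. Strand setting and annotation are not given in the sources used here.

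Symbols, positions and lengths came from Ensembl release 115, which gave a length to 16647 identifiers. The other 376 held 5.52% to 6.66% of a library's counts. Genes with at least 10 summed counts were tested by DESeq2 (version 1.42.0, Wald test, median-of-ratios scaling), with calls at an adjusted p under 0.05. Benjamini-Hochberg adjustment ran over the 10049 of 11128 tested genes kept by the default independent filtering, which leaves out genes of low mean count. Unless edgeR is named, adjusted p-values are from DESeq2, and each fold change is *aramis* RNAi relative to *bam* RNAi. The fit was tested on simulated counts, drawn independently with the same dispersion for every gene. That checks the procedure and not the calls made here, since these libraries also differ between replicates by transcript length. The floor of 3 counts equals 0.179 to 0.231 CPM, and floors and intervals cover counting error only.

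Alternatives were edgeR (version 4.0.16), other scalings and filters, length offsets, the replicate number as a block, leaving out each library, and a 4-fold limit. Members and lists were chosen with earlier results of these data known. The text names all 8 members, called genes of the other lists, genes with an explained role and the 2 nearest patterns per member. Ratios between members and the crossed pairing were chosen after the data were seen.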

Additional observations from a re-analysis of the deposited data

How the results depend on the processing

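In all, 1773 genes were called. The count was 1167 with edgeR, 699 relative to the ovarian somatic markers, 6615 relative to the germline markers, 715 with the replicate number as a block, 989 with the block and length offsets, 695 with a 4-fold limit added, and 188 to 2580 without 1 library. Of the members, 2 were called. The count was 1 with edgeR, total-count scaling, the somatic markers, the block, the block with length offsets or the 4-fold limit, and 0 to 2 without 1 library. With the block, *hop* had an adjusted p of 0.103 and *chinmo* of 0.0109. Of the regulators, 1 was called. The count was 0 with edgeR, the somatic markers, the block, the block with length offsets, no independent filtering or the 4-fold limit, 2 with total-count scaling, 9 relative to the germline markers, and 0 to 3 without 1 library. Of the responsive genes, 8 were called. The count was 5 with edgeR, total-count scaling, at least 10 counts in every library or the 4-fold limit, 3 with the somatic markers, the block or the block with length offsets, 12 relative to the germline markers, and 0 to 6 without 1 library. The causes of these changes were not tested.

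Relative to the germline markers the median of all genes moved to 1.69, against which values there are read. *hop* was then at 3.07, *Stat92E* at 2.02 and *Socs36E* at 1.45, all 3 called higher. *Socs36E* changed direction, as did *dome* (1.17), *BRWD3* (0.57) and *ImpL2* (0.46). With total-count scaling the median was -0.45, 543 genes were called higher and 1619 lower in place of 990 and 783, and *Stat92E* changed direction (-0.13). Without 1 library *dome* ran from -1.25 to 0.22. The replicate numbers did not pair the libraries: over 11128 genes, libraries of the same number deviated from their groups with r = -0.201, and over the 7883 genes that averaged 50 counts or more with r = -0.554. With the pairing crossed, 2968 genes and 2 members were called. The ligand genes had at most 50 counts in a library. *upd3* differed between replicates more than 99.7% of genes in *aramis* RNAi and 99.3% in *bam* RNAi. Those percentages are among genes with a mean of 50 or more. *upd3* itself lay below that mean, so its counting error is larger than theirs.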
